A study of Mus musculus with 6 samples.

Results

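Ttr, Ptgds, Apoe, Clu and Cst3 encode 5 abundant secreted proteins that carry hormones, lipids or damaged proteins, or inhibit proteases, and here they were followed, cell by cell, through mouse eye cups after drops of tropicamide or of saline. They are 5 of the 33696 genes in the deposited tables, with the identifiers ENSMUSG00000061808 (Ttr), ENSMUSG00000015090 (Ptgds), ENSMUSG00000002985 (Apoe), ENSMUSG00000022037 (Clu) and ENSMUSG00000027447 (Cst3). They were chosen by their UMI counts per cell class in tropicamide and saline libraries of this same series, so their levels and their fold changes are given as descriptions, with no test of any of the 5 in any class. For each gene the raw counts of unique molecular identifiers (UMIs, each marking a captured RNA molecule) were summed per library and cell class and expressed as a share of that class scaled to 1000000 UMIs (CPM). A UMI marks a molecule and not a stretch of it, so no value was divided by transcript length.

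The tropicamide group received drops every 10 min for 6 applications and was left for 1 h, and tropicamide, a muscarinic receptor antagonist, relaxes the ciliary muscle. The saline group, dosed at the same interval, stands for the contracted ciliary muscle. Each group held 12 mice, of which the right eyes were used, and 4 eyes were pooled per library, which gives 3 libraries (pools) per group. The tissue was the cup of retina, choroid and sclera left after lens, cornea, iris and ciliary body were cut away. The sources used here do not give strain, sex or age of the mice, nor the number of saline drops or the wait after them.

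Transthyretin (Ttr) binds thyroxine and, with retinol-binding protein, retinol, and in the eye and brain it is made by pigmented and choroid plexus epithelia. Prostaglandin D synthase (Ptgds) makes prostaglandin D2 and is itself a lipocalin that binds retinoids and other small lipophilic molecules. Apolipoprotein E (Apoe) packages cholesterol and phospholipid into particles that cells take up through receptors of the LDL receptor family, clusterin (Clu) is an extracellular chaperone that binds misfolded proteins and complement, and cystatin C (Cst3) inhibits cysteine cathepsins. The retinal pigment epithelium (RPE), which recycles retinoids and digests photoreceptor outer segments, and Müller glia, the radial glia of the retina, are known producers of several of them. When a cell breaks during dissociation its RNA enters the droplets of other cells. An abundant transcript of a fragile cell can thus be found at a low level in cells of other classes. This free RNA was not removed here.

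The RefSeq promoter table (GRCm38.p6, 250 bases before to 50 after the gene start) held an entry for 3 of the 5 genes, and none for Ttr and Clu. Ptgds and Cst3, which were both highest in RPE-like cells in every library, are shown because both genes carry the E-box core CANNTG, while their GGGCGG boxes differ. Both lie on the minus strand, Ptgds at chr2:25469700-25469999 and Cst3 at chr2:148875463-148875762, and capitals mark CANNTG and GGGCGG found on either strand.
Ptgds: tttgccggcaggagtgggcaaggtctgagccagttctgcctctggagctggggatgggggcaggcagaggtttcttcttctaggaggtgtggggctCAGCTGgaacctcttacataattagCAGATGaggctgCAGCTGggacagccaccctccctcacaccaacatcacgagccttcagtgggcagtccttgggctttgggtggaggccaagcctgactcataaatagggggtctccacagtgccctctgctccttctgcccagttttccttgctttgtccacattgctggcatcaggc
Cst3: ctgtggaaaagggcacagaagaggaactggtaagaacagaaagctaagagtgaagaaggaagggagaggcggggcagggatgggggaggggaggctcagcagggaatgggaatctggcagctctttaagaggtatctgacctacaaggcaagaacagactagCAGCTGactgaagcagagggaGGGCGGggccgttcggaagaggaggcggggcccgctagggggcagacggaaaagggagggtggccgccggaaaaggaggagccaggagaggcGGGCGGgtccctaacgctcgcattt
CANNTG occurred 3 times in the Ptgds window and 1 time in that of Cst3, and GGGCGG 0 times and 2 times, with no match overlapping another. CANNTG, which is its own reverse complement, was in 72.3% of 32851 promoters of the table and GGGCGG in 35.7%, so a match describes the letters and nothing more.

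The 6 libraries held 66434 barcodes and 229624062 UMIs, with 30761887 to 49477707 UMIs per library, and 60096 cells were kept, 8705 to 11998 per library. Of the barcodes, 522 occurred in more than 1 library, 22 to 64 per pair of libraries. Cells fell into 61 clusters, 38 of which were named from marker genes into 17 classes, and the 5 genes took part neither in the clustering nor in the naming. Rod-like cells were 49247 of the kept cells and RPE-like cells 1799. The RPE-like name was given from 9 markers, so their levels describe the class and do not check the name. They summed to 31698 to 32775 CPM in RPE-like cells of the tropicamide libraries and 28555 to 30772 CPM in those of the saline libraries. Only Best1 was nearly absent, at 0 to 3.34 CPM. RPE-like cells also held rod markers at 2623 to 3683 CPM in tropicamide libraries and 2220 to 3535 CPM in saline libraries, against 30202 to 33706 CPM over all libraries in rods themselves.

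Clusters B30 and A31 held both RPE and rod genes and stayed unnamed: their best list was that of rods, while Rpe65, Rgr, Rdh5, Trf, Ttr and Ptgds were among the top 10 genes of each. B30 had 11, 26 and 38 cells in the tropicamide libraries and 4, 3 and 5 in the saline libraries, and A31 had 9, 22 and 4 cells against 1, 3 and 8. B30 lay at 40822 to 55654 CPM of Ttr, 48671 to 70766 CPM of Ptgds, 7081 to 9679 CPM of Apoe, 2774 to 4998 CPM of Clu and 19707 to 24887 CPM of Cst3 per library, below RPE-like cells without overlap for all but Clu. A31 had 3580.0 to 8293 CPM of Ttr and 1790.0 to 7603 CPM of Ptgds. B30 held 2.37 to 5.94% of the Ttr UMIs of a library. The order of classes below is over the 17 named classes and the unnamed clusters B1, B5 and A13, without B30, A31 and the other unnamed clusters.

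Ttr was the most abundant transcript of RPE-like cells, and beside them clusters B30 and A31 held it at 3580.0 CPM or more in every library. It made up 85212, 88243 and 79528 CPM of RPE-like cells in the tropicamide libraries and 75986, 81846 and 78972 CPM in the saline libraries. The groups overlapped, and the next in that order, the unnamed cluster A13 led by skeletal muscle genes, had 205.0 ± 205.4 CPM (SD, n = 6 libraries). A13 scored best for the rod list, at 0.469, and had a median of 1017 UMIs. It had no matching cluster with the members in the clustering. From there down to smooth muscle-like cells at 69.3 ± 61.1 CPM each class overlapped its neighbour, so their order was not resolved. RPE-like cells held 88.6 to 92.0% of all Ttr UMIs of a library, although they held only 0.581 to 4.15% of all UMIs.

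Ptgds was the second most abundant transcript of RPE-like cells and was also high in B30, A31 and 2 further classes. Its level in RPE-like cells was 84379.8, 82801 and 77959 CPM in the tropicamide libraries, against 77259, 81333 and 81629 CPM in the saline libraries. The groups overlapped. Melanocyte-like cells, 128 in all and as few as 2 in a library, had 17821 ± 5930.4 CPM, and the 79 ciliary or iris epithelium-like cells 13070.0 ± 5853 CPM (SD, n = 6). These 2 classes did not differ beyond their spread. With a stricter cell filter the ciliary or iris epithelium-like level was 8108 CPM, 10440.3 CPM in the tropicamide and 5777 CPM in the saline libraries, against 12426 and 13715 CPM as reported. The other classes in the order lay at or under 214.8 CPM on average. RPE-like cells held 76.4 to 88.8% of the Ptgds UMIs and ciliary or iris epithelium-like cells 0.943 to 11.9%.

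Apoe was shared by several classes and among the named classes was highest in ciliary or iris epithelium-like cells, at 25477 ± 4661 CPM (SD, n = 6). That class numbered 5 to 24 cells per library, although ciliary body and iris had been cut away. Its top 10 genes held 1 marker of its own list and 1 of Müller glia. RPE-like cells followed at 11930.3 ± 1332 CPM, macrophage-like cells at 8489 ± 11889 CPM and Müller glia-like cells at 8467 ± 1069 CPM, and these 3 overlapped. Macrophage-like cells numbered 2 to 40 per library, and their saline libraries ran from 34.7 to 32226 CPM. Melanocyte-like cells, the unnamed cluster B5 and Schwann-like cells came lower, at 4897.8, 4077 and 4019.5 CPM. Further classes lay between these and rods, among them cluster B1 at 1706 to 2556 CPM and fibroblast-like cells at 554.9 to 1181 CPM per library. Apoe was the second most abundant transcript of Müller glia-like cells, where a UMI was found in 93.6% of cells thinned to 500 UMIs each (exact 95% interval 90.7 to 95.9%). Rods, cones, pericyte-like and rod bipolar-like cells lay between 61.1 and 87.6 CPM on average.

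Clu was high in 3 named classes. RPE-like cells had 5445.5 ± 451.7 CPM, ciliary or iris epithelium-like cells 3674 ± 1015 CPM and Müller glia-like cells 3153 ± 349.5 CPM (SD, n = 6), each overlapping the next, and the ranges of Müller glia-like and melanocyte-like cells did not overlap. Melanocyte-like cells averaged 593.9 ± 635.3 CPM with libraries from 0 to 1365 CPM. Clu ranked 14 in RPE-like cells and 10 in Müller glia-like cells among all genes. In rods it lay at 17.9 ± 3.58 CPM, below cones at 169.4 ± 53.8 CPM.

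Cst3 ranked 3 in RPE-like cells, at 32547 ± 980.1 CPM, ahead of macrophage-like cells at 8357 ± 3845 CPM and Schwann-like cells at 3154.5 ± 988.0 CPM (SD, n = 6). It was the only one of the 5 at more than 1000 CPM in rods, at 1325 ± 100.6 CPM, where it ranked 54 among all genes and the other 4 ranked 2480 or lower. Rods exceeded Müller glia-like cells, at 400.8 ± 111.1 CPM, and rod bipolar-like cells, at 286.5 ± 41.6 CPM, in every library. Its UMIs were split, with 14.4 to 49.5% of them in RPE-like cells and 26.97 to 65.7% in rods.

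**Figure D1:**
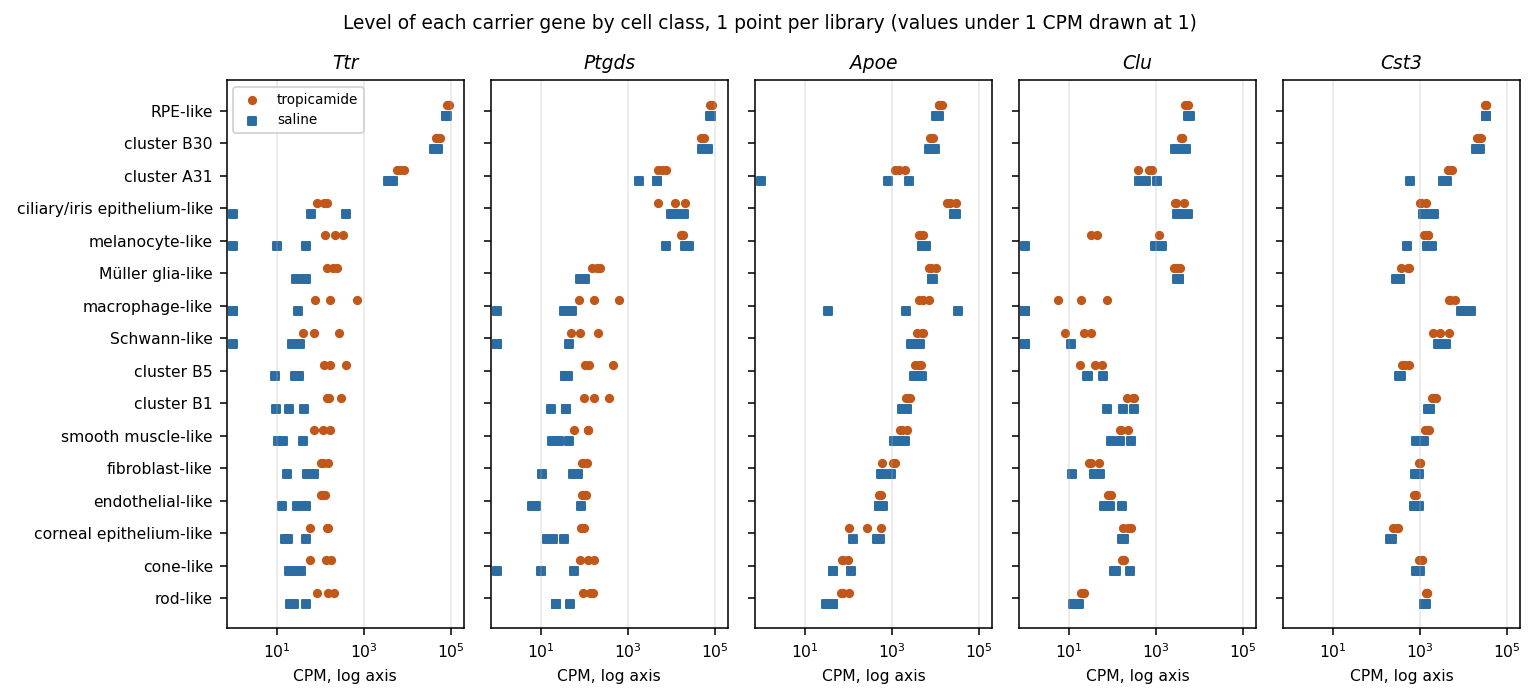
CPM of each gene on a log axis in 12 named classes and clusters B30, A31, B5 and B1, 1 point per library (tropicamide circles above saline squares, values under 1 CPM drawn at 1). Ttr stands at 75986 to 88243 CPM in RPE-like cells, 40822 to 55654 CPM in B30 and 3580.0 to 8293 CPM in A31 and lower in the other classes drawn, Ptgds is high in 2 classes more, and Apoe and Clu are also high in Müller glia-like cells.

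The 5 genes together made up 22.0, 22.4 and 20.5% of the UMIs of RPE-like cells in the tropicamide libraries and 20.2, 21.2 and 21.2% in the saline libraries. In ciliary or iris epithelium-like cells they made up 3.43 to 5.02%, in Müller glia-like cells 1.07 to 1.49% and in rods 0.130 to 0.191%. RPE-like cells were 1.81, 3.60 and 4.15% of all UMIs in the tropicamide libraries and 0.703, 0.581 and 1.12% in the saline libraries, and the class that held most of a shared gene differed between libraries. For Clu, RPE-like cells held 39.8, 61.6 and 61.6% of the UMIs in tropicamide libraries and 22.0, 23.1 and 36.8% in saline libraries, while Müller glia-like cells held 8.47 to 9.56% and 29.9 to 47.7%. For Apoe, Müller glia-like cells held 4.30 to 6.45% in tropicamide libraries and 15.6 to 30.5% in saline libraries. The ranges of these shares did not overlap between the groups for Clu in either class. Müller glia-like cells were themselves 0.375 to 0.436% of kept cells in the tropicamide libraries and 0.545 to 1.33% in the saline libraries. That class leaves out the unnamed cluster B15, whose best list was that of Müller glia. B15 had 39, 34 and 44 cells in the tropicamide libraries and 31, 19 and 25 in the saline libraries. With the members in the clustering, Müller glia-like cells numbered 71, 75 and 93 against 147, 70 and 100, so their separation between groups depends on the naming. The part of these cell numbers in the UMI shares was not tested.

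**Figure D2:**
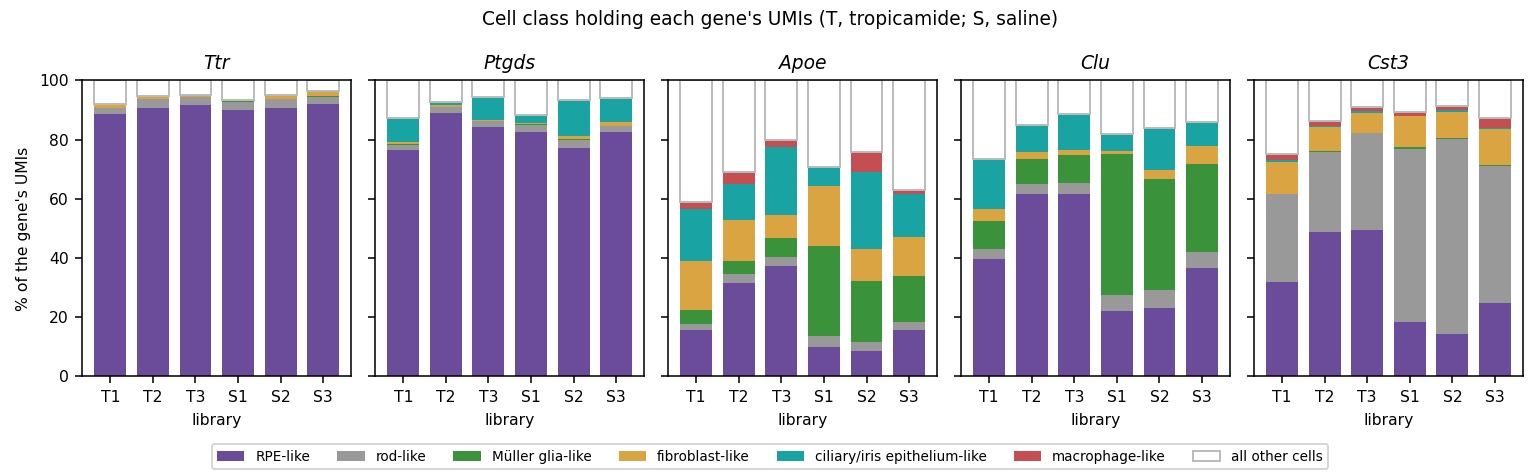
Percentage of each gene's UMIs that lay in each class, per library (T1 to T3 tropicamide, S1 to S3 saline, open bars all other cells). Ttr is 88.6 to 92.0% RPE-like in every library. For Clu and Apoe the Müller glia-like share is larger in the saline libraries, where these cells, without cluster B15, are also a larger share of kept cells.

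RPE-like cells were 3 clusters that differed in depth, and the 5 genes were high in each. Cluster B0 held 1042 cells at a median of 909.5 UMIs, B3 662 cells at 3090.5 UMIs and B27 95 cells at 3557 UMIs. Ttr averaged 77929 ± 3414 CPM in B0, 85611 ± 5284 CPM in B3 and 74587 ± 5284 CPM in B27 (SD, n = 6). Clu ran the other way, at 5567 ± 455.8 CPM in B0, 5192 ± 371.9 CPM in B3 and 6107 ± 881.8 CPM in B27. Dct and Pmel, pigment cell genes, were among the top 10 genes of B27 beside RPE genes. The ratio of Ptgds to Ttr UMIs in RPE-like cells was 0.990, 0.938 and 0.980 in the tropicamide libraries and 1.02, 0.994 and 1.03 in the saline libraries, so the 2 leading transcripts stayed near equal numbers.

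In rods the genes fell into 2 patterns by the number of UMIs per cell. Of 24948 rods of the tropicamide libraries, 5293 had 1 Ttr UMI, 980 had 2 and 219 had 3 or more. Of 24299 rods of the saline libraries, 1460 had 1, 61 had 2 and 14 had 3 or more. Ptgds, Apoe and Clu were like Ttr, with at most 0.533% of rods of either group at 3 or more UMIs. For Cst3, 45.4% of rods of the tropicamide libraries and 43.5% of those of the saline libraries held 3 or more UMIs.

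Every cell was also thinned to 500 UMIs, so that depth was equal, and the cells of all 6 libraries were pooled. Ttr was then seen in 4.88% of rods (exact 95% interval 4.69 to 5.08%), 5.82% of cones, 3.84% of endothelial-like cells, 3.90% of fibroblast-like cells and 3.99% of Müller glia-like cells, against 99.9% of RPE-like cells. Before thinning these shares were 16.3% in rods and 55.3% in fibroblast-like cells, whose median depths were 2075 and 14508 UMIs. The pooled share hides a difference between the groups. After thinning, Ttr was seen in 4.26 to 10.3% of rods per tropicamide library and 1.05 to 2.70% per saline library, without overlap. Clu, by contrast with Ttr, was in 0.991% of rods (0.905 to 1.08%), 7.28% of cones (5.12 to 9.98%) and 74.2% of Müller glia-like cells. Apoe also differed from Ttr outside rods. It was in 3.41% of rods, 19.9% of endothelial-like cells and 46.0% of cells of cluster B1. Cst3 was in 43.3% of rods (42.8 to 43.7%) and 13.8% of Müller glia-like cells (10.5 to 17.7%), a difference between classes that is wider than the counting error. Intervals cover counting error only and not the spread between libraries.

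The rod level was set against the level of the whole library. As a percentage of the CPM over all kept cells of the same library, Ttr in rods was 4.83, 5.83 and 4.25% in the tropicamide libraries and 4.15, 3.90 and 4.81% in the saline libraries. Ptgds gave 4.61, 4.74 and 3.44% against 3.46, 3.71 and 4.21%, and Apoe 5.25, 6.43 and 5.11% against 5.90, 4.41 and 5.25%. The groups overlapped for all 3. Clu gave 7.85, 7.21 and 6.48% in the tropicamide libraries and 8.84, 8.27 and 9.88% in the saline libraries, which did not overlap. Cst3 in rods was 55.9 to 72.6% of its library level in the tropicamide libraries and 89.2 to 95.9% in the saline libraries. Whether free RNA accounts for the members' UMIs in rods was not tested.

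**Figure D3:**
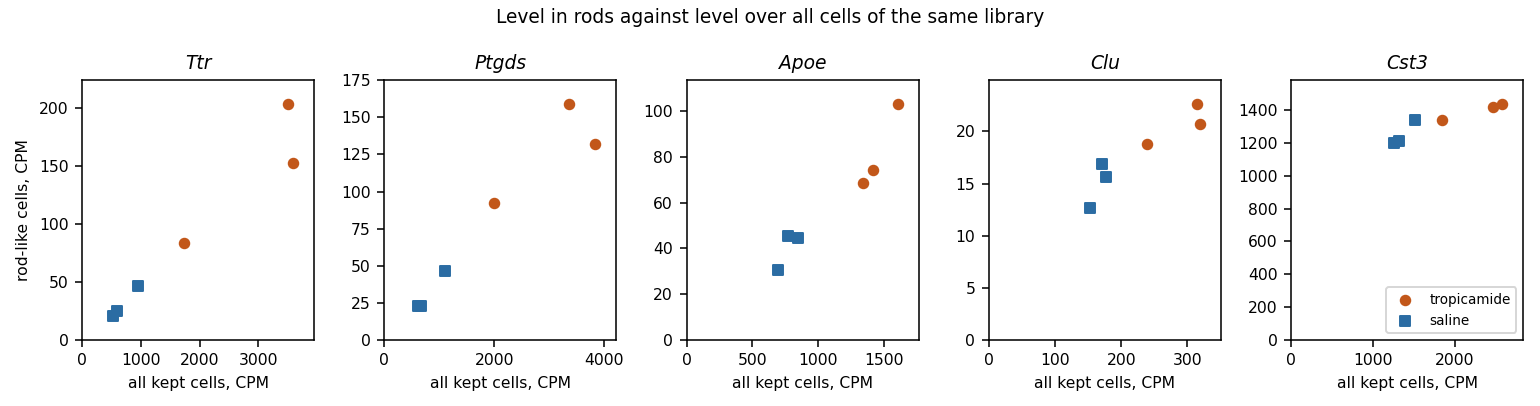
CPM in rod-like cells against CPM over all kept cells of the same library, 1 point per library, tropicamide circles and saline squares. For Ttr, Ptgds and Apoe the rod level is 3.44 to 6.43% of the library level in every library, and Cst3 stays between 1201 and 1438 CPM in rods.

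The RPE markers, which are not among the 5 genes, were set beside them. In RPE-like cells there were 2.67, 2.69 and 2.51 Ttr UMIs per marker UMI in the tropicamide libraries and 2.66, 2.81 and 2.57 in the saline libraries. In rods the ratio was 2.08, 2.54 and 2.12 in the tropicamide libraries and 1.06, 0.951 and 1.44 in the saline libraries, lower than in RPE-like cells and without overlap between the groups. For Ptgds it was 2.29, 1.98 and 1.83 in rods of the tropicamide libraries and 0.979, 1.06 and 1.45 in those of the saline libraries, also lower than the 2.46 to 2.80 of RPE-like cells. For the other 3 genes the ratio was higher in rods than in RPE-like cells in every library. Apoe had 0.955 to 1.85 UMIs per marker UMI in rods of the tropicamide libraries and 1.39 to 1.95 in those of the saline libraries, against 0.349 to 0.430 in RPE-like cells. Clu had 0.282 to 0.467 in rods of the tropicamide libraries and 0.526 to 0.675 in those of the saline libraries, with 0.150 to 0.210 in RPE-like cells. Cst3 had 17.7 to 33.3 in rods of the tropicamide libraries and 41.8 to 56.3 in those of the saline libraries, with 0.969 to 1.14 in RPE-like cells. Rgr, a retinal opsin of the RPE, stood at 11.9, 31.0 and 24.3 CPM in rods of the tropicamide libraries and 4.04, 3.18 and 7.44 CPM in those of the saline libraries. Rrh, an opsin relative of the RPE, stood at 3.19, 3.32 and 4.60 CPM against 5.30, 4.28 and 4.15 CPM, so it did not follow Rgr. Rdh5 in rods stood at 13.5, 22.6 and 21.8 CPM against 10.2, 10.9 and 13.2 CPM, above Rgr in every saline library. In RPE-like cells Rgr, at 12518 to 14852 CPM, lay above Rdh5, at 6678 to 7541 CPM, in every library. The markers thus had other proportions in rods, and the part of this in the ratios was not tested.

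Of the 9 RPE markers 7 could be tested in rods, and 4 were higher in the tropicamide libraries at an adjusted p under 0.05 (edgeR's quasi-likelihood test, Benjamini-Hochberg), with 11.2% of 16286 genes called in either direction and 5.89% called higher. They were Lrat, which esterifies retinol (log2 fold change 2.61 ± 0.43 SE, edgeR adjusted p = 0.00237), the lactate transporter Slc16a8 (2.24 ± 0.40, 0.00902), the retinol dehydrogenase Rdh5 (0.79 ± 0.20, 0.0426) and the isomerohydrolase Rpe65 (2.49 ± 0.54, 0.0490). The median of the 7 was 2.24, against 0.00 over all genes tested. The number called was 2 without tropicamide library 2 or 3 or saline library 1 or 2, since Rdh5 and Rpe65 were then not called, and Rdh5 was not called without saline library 3 either (edgeR adjusted p = 0.0691). The call of Rpe65 was also lost in edgeR without a low-count filter (adjusted p 0.0987), with a stricter cell filter (0.0779), with doublets kept (0.0655) and with the members in the clustering (0.0517).

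Between tropicamide and saline, the 5 genes differed in RPE-like cells by -0.16 to 0.22 on the log2 scale. Ttr averaged 84327 ± 4424 CPM in the tropicamide libraries and 78935 ± 2930.1 CPM in the saline libraries (SD, n = 3 each), a log2 fold change of 0.10 ± 0.07 SE in edgeR's fit. The log2 fold change of Ptgds was 0.04 ± 0.07 and that of Cst3 -0.02 ± 0.07, and the groups overlapped for all 3.

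Apoe and Clu were the 2 members whose groups did not overlap in RPE-like cells, where 6.92% of genes were so placed higher and 6.46% lower, shares from which nothing is read because the contrast chose the members. Apoe stood at 12319, 14077 and 12087 CPM in the tropicamide libraries and 10967, 10155 and 11977 CPM in the saline libraries. Its log2 fold change was 0.22 ± 0.07 SE. Clu stood at 5269.9, 5379.7 and 4742 CPM in the tropicamide libraries and 5536, 6113 and 5633 CPM in the saline libraries. Its log2 fold change was -0.16 ± 0.07 SE. Within single RPE-like clusters the groups overlapped for Clu in B0, B3 and B27, and for Apoe in B0 and B3 but not in B27. Of RPE-like cells, B0 made up 58.2 to 61.3% in the tropicamide libraries and 52.2 to 55.9% in the saline libraries. B27 made up 3.17 to 7.43% against 8.05 to 10.3%. The part of this mix in the class levels of Apoe and Clu was not tested. The fibroblast markers summed to 277.8 to 393.2 CPM in RPE-like cells of the tropicamide libraries and 102.6 to 202.6 CPM in those of the saline libraries, and their part in these values was not tested.

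**Figure D4:**
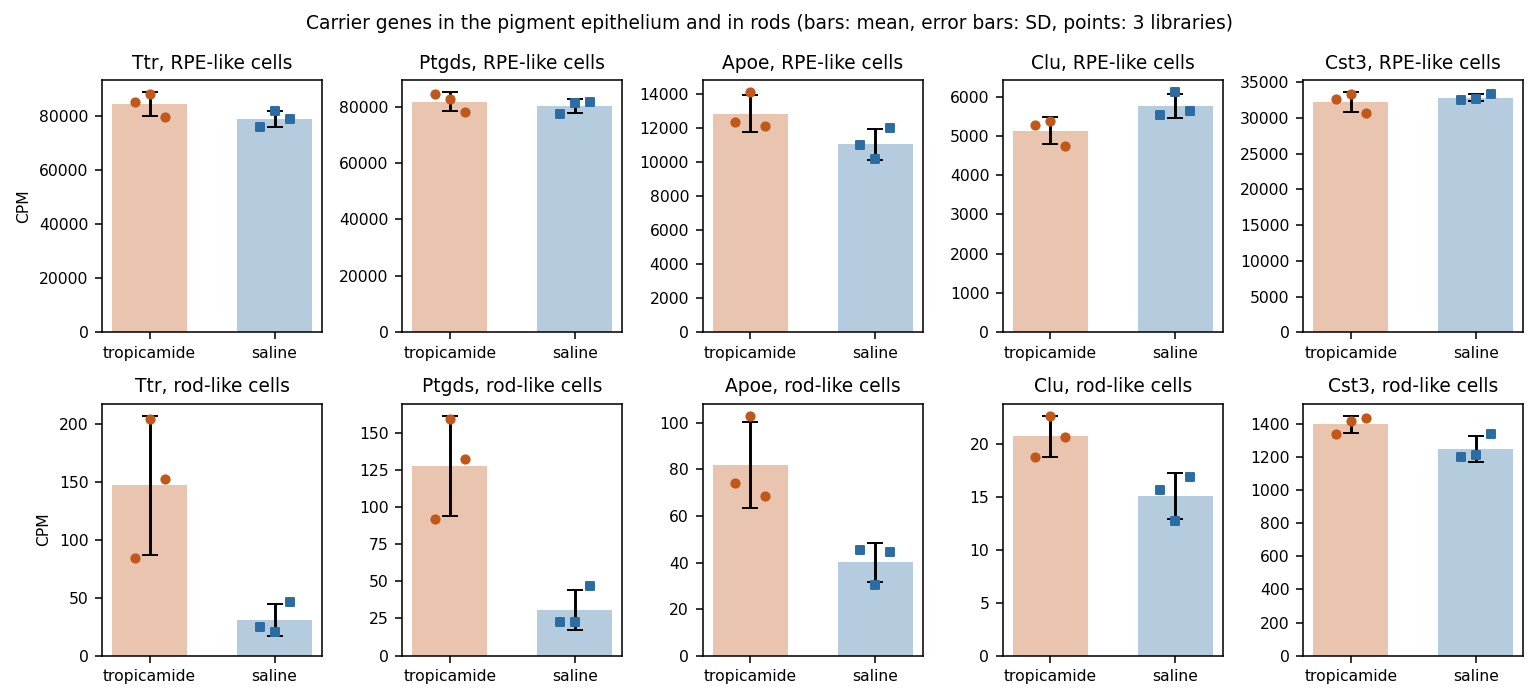
CPM of each gene in RPE-like cells (top) and rod-like cells (bottom), bars for the mean, error bars for the SD, points for the 3 libraries of each group. In RPE-like cells the bars of a gene are nearly level, while in rods Ttr averages 146.8 CPM in tropicamide and 30.4 CPM in saline libraries.

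In rods all 5 genes had higher means in the tropicamide libraries, with log2 fold changes from 0.18 to 2.30. Ttr stood at 83.9, 203.9 and 152.6 CPM in the tropicamide libraries and 24.6, 20.5 and 46.1 CPM in the saline libraries, a log2 fold change of 2.30. Ptgds stood at 92.0, 159.2 and 132.0 CPM against 22.7, 22.7 and 46.6 CPM, a log2 fold change of 2.08. Apoe stood at 74.3, 103.1 and 68.7 CPM against 45.3, 30.5 and 44.6 CPM (1.05), and Clu at 18.8, 22.6 and 20.7 CPM against 15.7, 12.7 and 16.9 CPM (0.48). These 4 did not overlap between groups, and 13.8% of genes tested in rods did not overlap in that direction, a share from which nothing is read because the members were listed with these values known. Cst3 stood at 1339, 1417 and 1438 CPM in the tropicamide libraries and 1201, 1210.0 and 1343 CPM in the saline libraries (0.18), which overlapped. Among rods with fewer than 3 Ttr and fewer than 3 Ptgds UMIs, the log2 ratios of the group means were 2.20 for Ttr, 2.05 for Ptgds, 1.03 for Apoe, 0.43 for Clu and 0.16 for Cst3.

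Summed over all kept cells, where more cells of a type and more RNA per cell cannot be told apart, the log2 fold changes were 2.12 for Ttr, 1.98 for Ptgds, 0.95 for Apoe, 0.83 for Clu and 0.79 for Cst3. Ttr stood at 1738, 3499 and 3593 CPM in the tropicamide libraries and 593.3, 524.3 and 958.6 CPM in the saline libraries. None of the 5 overlapped between groups, and 8.55% of genes were so placed higher. RPE-like cells were 3.09, 5.52 and 4.67% of kept cells in the tropicamide libraries and 0.999, 0.712 and 1.88% in the saline libraries. The shares did not overlap, and the two-sided exact permutation test gave p = 0.1, the smallest p that 3 against 3 pools allow. Replicates are pools of eyes, so p-values measure the spread between pools. The part of this share in the summed levels and in the rod levels was not tested.

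In Müller glia-like cells, Ttr and Ptgds had higher means in the tropicamide libraries, while Apoe and Clu, which these cells hold at far higher levels, lay close together in both groups. Ttr stood at 235.3, 200.1 and 139.9 CPM in the tropicamide libraries and 47.3, 43.5 and 27.6 CPM in the saline libraries. Every tropicamide library lay above every saline library, and the log2 fold change was 2.22 ± 0.25 SE. Ptgds stood at 231.9, 152.8 and 197.2 CPM in the tropicamide libraries and 98.6, 80.5 and 101.3 CPM in the saline libraries, again without overlap. Its log2 fold change was 1.00 ± 0.21 SE.

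In tropicamide library 1 a pair of cells carried much of both values. Of its 38 Müller glia-like cells, 2 held 58.0% of the 69 Ttr UMIs and 2 held 63.2% of the 68 Ptgds UMIs, at 10 or more UMIs each. In the other libraries no Müller glia-like cell had 10 UMIs of either gene. Without these cells, left out after the values were seen, tropicamide library 1 stood at 104.5 CPM of Ttr, still above every saline library, and at 90.1 CPM of Ptgds, inside the range of the saline libraries. With doublets kept the log2 fold change was 3.31 for Ttr and 2.26 for Ptgds.

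Apoe in Müller glia-like cells stood at 7249, 7895 and 10421 CPM in the tropicamide libraries and 8342, 8260.4 and 8632 CPM in the saline libraries. The groups overlapped, at -0.02 ± 0.13 SE on the log2 scale. The log2 fold change of Clu was -0.12 ± 0.14 and that of Cst3 0.56 ± 0.17. Cst3, at 364.8, 547.4 and 530.8 CPM against 278.6, 346.0 and 337.0 CPM, did not overlap between groups.

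Markers of other cell types were also higher in the Müller glia-like cells of the tropicamide libraries, where edgeR called 0.775% of 7099 genes in either direction and 0.409% higher. Rod markers summed to 3331 to 4486 CPM in tropicamide libraries and 2041 to 2479 CPM in saline libraries, and 6 of the 10 were called higher by edgeR. Fibroblast markers summed to 944.5 to 1748 CPM against 118.3 to 215.4 CPM, and 2 of the 3 tested were called higher, the collagen genes Col1a1 and Col1a2. RPE markers summed to 294.6 to 381.9 CPM against 251.0 to 311.2 CPM, and none was at 0. The part of these transcripts in the Ttr and Ptgds values was not tested.

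Across the 9 classes and clusters with at least 30 cells in every library, Ttr was higher without overlap in 8, all but RPE-like cells, and Ptgds in 7. Apoe was so in 3 (RPE-like cells, A13 and rods), Cst3 in 4 (Müller glia-like and fibroblast-like cells, B1 and B5) and Clu in rods alone, with RPE-like cells placed lower. The share of genes that lay higher without overlap was 8.49% in Müller glia-like cells, 5.27% in cones, 6.55% in endothelial-like cells, 14.9% in fibroblast-like cells, 10.6% in B1, 8.31% in B5 and 6.9% in A13, and nothing is read from the members' counts beside it. Clusters B1 and B5 are unnamed, led by Chil1 and Smoc1 and by Ptn and Schip1. By edgeR's adjusted p, 0.161% of genes were called in B1, 0.0668% in B5, 0.039% in A13 and 0.00726% in fibroblast-like cells. None (0.0%) was called in cones, where 341 genes had an unadjusted p under 0.05 and DESeq2 called 1, or in endothelial-like cells, with 664 and 17.

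In cluster A13 Ttr stood at 449.5, 464.1 and 201.7 CPM in the tropicamide libraries and 49.2, 17.8 and 47.4 CPM in the saline libraries, a log2 fold change of 3.12 ± 0.43 SE, and of 2.17 with doublets kept. In cones it stood at 59.3, 171.2 and 135.8 CPM in the tropicamide libraries against 24.1, 19.0 and 35.5 CPM in the saline libraries (2.12 ± 0.38). In endothelial-like cells it stood at 103.4, 126.0 and 109.4 CPM against 29.3, 12.8 and 46.7 CPM in the saline libraries (1.62 ± 0.23). Neither of these overlapped between the groups. Ptgds in endothelial-like cells was at 83.4 CPM in saline library 3 and at 7.70 and 6.40 CPM in the other saline libraries, and its log2 fold change of 1.04 ± 0.71 SE was 3.77 without saline library 3. Ptgds in cones had a log2 fold change of 4.01 without saline library 1, where it stood at 56.9 CPM.

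In fibroblast-like cells Ttr stood at 101.5, 149.6 and 115.1 CPM in the tropicamide libraries and 16.8, 49.0 and 71.6 CPM in the saline libraries (log2 fold change 1.32 ± 0.52 SE). A few cells carried much of it in some libraries: 1 of 407 cells held 41.8% of the 663 Ttr UMIs in tropicamide library 1, 2 of 219 cells held 76.3% of 169 in saline library 2, and 2 of 475 held 56.6% of 502 in saline library 3. Without the cells of 10 or more Ttr UMIs, left out after the values were seen, the levels were 59.2, 135.7 and 111.8 CPM in the tropicamide libraries and 16.8, 11.7 and 31.3 CPM in the saline libraries, also without overlap. In B1 the log2 fold change of Ttr was 2.89 ± 0.57, and in B5 3.11 ± 0.75. Ttr in tropicamide library 1 of B5, at 394.7 CPM, stood above the 164.4 and 118.3 CPM of the other tropicamide libraries, and the log2 fold change without it was 2.45. Whether the change of a gene differed between classes was not tested.

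**Figure D5:**
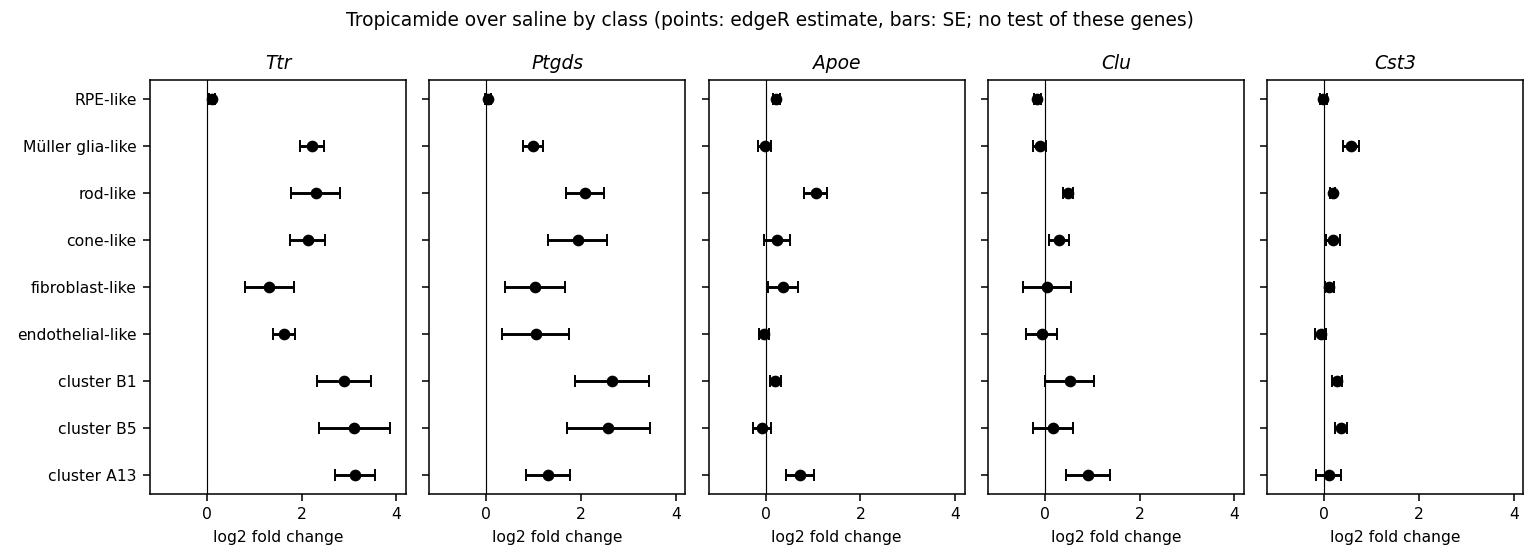
Log2 fold change of each gene, tropicamide over saline, by class, points for edgeR's estimate and bars for its SE, with no test. Ttr lies at 0.10 in RPE-like cells and between 1.32 and 3.12 in the other classes, while Cst3 lies between -0.08 and 0.56.

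The partners of the 5 proteins were counted in lists of related genes. In RPE-like cells high levels were found for transferrin Trf (19887 ± 3412 CPM), the retinoid carrier Rlbp1 (3183 ± 176.1), the cathepsin Ctsd (2684 ± 207.3), the matrix protease inhibitor Timp3 (2288 ± 165.5) and the lipid transfer protein Pltp (1033 ± 111.3; SD, n = 6). Among receptors and transporters, Lrp1, an Apoe receptor, stood at 268.3 ± 36.0 CPM, Stra6, a receptor for retinol-binding protein, at 695.2 ± 112.6 CPM, and Slco1c1, a thyroid hormone transporter, at 182.1 ± 29.9 CPM. Ptgis, prostacyclin synthase, stood at 151.0 ± 29.4 CPM.

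In RPE-like cells 1 gene of these lists was called between the groups by edgeR, which called 0.123% of 4873 genes in that class. Ctsb, a cathepsin that cystatin C inhibits, averaged 492.3 ± 36.0 CPM in the tropicamide libraries and 679.0 ± 52.9 CPM in the saline libraries (SD, n = 3 each), which is -0.45 ± 0.10 SE on the log2 scale (edgeR adjusted p = 0.0326). It was 1 of 10 tested cathepsins and cystatins, whose median was -0.22 against -0.00 over all genes. The call was lost with DESeq2 (adjusted p 0.231), and without tropicamide library 2 (-0.44, 0.155) or 3 (-0.38, 0.194) or saline library 1 (-0.43, 0.102) or 2 (-0.40, 0.436) in edgeR. It was also lost in edgeR without a low-count filter (adjusted p 0.256), with doublets kept (0.102), with the members in the clustering (0.0700), and in cluster B3 alone (-0.24, 0.734) or B0 alone (-0.32, 0.961). No gene was called among 3 lipocalins and small carriers, 3 apolipoprotein genes, 8 lipoprotein receptors, 6 thyroid hormone and retinol genes, 4 prostaglandin genes, 3 complement genes and 6 other secreted proteins tested there.

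In rods, Vldlr, a receptor for Apoe particles, was 1 of 11 lipoprotein receptors called, at 230.8 ± 5.60 CPM after TMM scaling in the tropicamide libraries and 195.8 ± 0.859 CPM in the saline libraries (0.25 ± 0.05 SE, edgeR adjusted p = 0.00409). It was called without each library in turn, and not in cluster A1 alone (0.17, edgeR adjusted p = 0.167). Ctsb (log2 fold change 0.23 ± 0.07 SE, edgeR adjusted p = 0.0419) and the complement gene C4b (1.47 ± 0.35, 0.0172) were called higher and ceruloplasmin Cp (-0.26 ± 0.07, 0.0337) lower. Each was the 1 called in its list, of 12, 12 and 9 genes tested. Nothing about the lists is read from these counts beside the share over all genes. C4b was not called without tropicamide library 1 or 2 or saline library 2, and Ctsb and Cp were called in edgeR with saline library 3 left out and with no other library left out. Ctsb was not called with doublets kept (edgeR adjusted p = 0.0554) or in cluster A1 alone (0.489). Cp was not called with a stricter cell filter (edgeR adjusted p = 0.0733), in cluster A1 alone (0.217) or by DESeq2 (0.0965), and DESeq2 gave no adjusted p for C4b. None of these lists had a called gene in Müller glia-like cells.

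Over the 17 named classes, each gene's mean log2(CPM + 1) was compared with that of 9881 genes, as a description. Closest to Ttr were Rgr (Pearson r = 0.990), the hormone gene Gip (0.979) and Pon1 (0.977), each highest in RPE-like cells. Closest to Ptgds were Slc39a12 (0.982), a zinc transporter, Cox8b (0.972) and Pld5 (0.952). For Apoe they were Rab20 (0.890), Tmem176b (0.889) and Tst (0.870), for Clu Car14 (0.891), Folr1 (0.886) and Rrh (0.866), and for Cst3 Tmem86a (0.822) and Ctsa (0.821) after a gene with a clone name. Among the 5 themselves r ran from 0.322 between Clu and Cst3 to 0.732 between Ptgds and Clu. All classes come from the same 6 libraries.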

How the data were processed

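The deposited tables give raw UMI counts per gene and barcode. Per the file headers the authors made them with Cell Ranger 8.0.1, and STAR and GRCm39 are named per the submitters' processing notes. The extract protocol in the labels describes bone and sorted cells and was not used. Filters of 500 UMIs, 300 genes and 20% mitochondrial UMIs removed 416 of 66434 barcodes. For doublets, 2 artificial pairs per barcode were made in each library, each barcode was scored by its share of such pairs among 51 neighbours, and 5922 were removed (those scoring highest, 0.8% for each 1000 barcodes). The remaining cells were clustered in 2 rounds (2000 variable genes, 30 principal components, 20 neighbours, Leiden resolution 1) without the 5 genes. A cluster of at least 20 cells was named with the ending "-like" from 27 marker lists, at a score of 0.5 (0.4 with 2 markers among its top 10 genes) and at least 3 markers detected; these limits were set after the clusters were seen. Free RNA was not removed.

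Counts summed per library and class were compared, tropicamide over saline, by edgeR 4.0.16 (quasi-likelihood, TMM, filterByExpr, Benjamini-Hochberg within class, threshold 0.05) in R 4.3.3, for the 9 classes or clusters with at least 30 cells in every library. The test was also run on counts simulated with edgeR's own fitted dispersions, which cannot show how it behaves on the spread of real pools. For the 5 members only the fitted fold change and its SE are given, since this contrast was used to choose them. Clustering used leidenalg 0.10.2 and igraph 0.11.9, figures matplotlib 3.10.9, and the rest pandas 2.3.3, scipy 1.17.1 and numpy 2.4.6 in Python 3.11.15. Alternatives were DESeq2 1.42.0 (its test, and its size factors in edgeR), leaving out each library, a block for replicate number, no filter on low counts, a stricter cell filter (1000 UMIs, 500 genes, 10%), doublets kept, the members in the clustering, a CPM total without mitochondrial and rod marker genes and, for shares, a denominator without rods; single clusters (B0, B3, A1) were added after seeing the data. Named genes are the 5 members, per list and class up to 4 called genes of smallest p and up to 4 of highest CPM in RPE-like cells, the defining markers, and the 3 genes most like each member among those of at least 50 CPM in a class. The members, lists and tests were chosen with earlier results of these data known. Some genes of the lists are not reported here.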

Additional observations from a re-analysis of the deposited data

Results flagged for a closer look

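For Clu the groups lay in opposite order in 2 classes. In RPE-like cells its log2 fold change, tropicamide over saline, was -0.16, with every tropicamide library below every saline library. In rods it was 0.48, with every tropicamide library above every saline library. Neither value was tested, nor was the difference between the 2 classes. Within each of the RPE-like clusters B0, B3 and B27 the Clu groups overlapped, with lower means in the tropicamide libraries. Those means were 5352 against 5782 CPM in B0, 4950 against 5435 CPM in B3 and 5673 against 6541 CPM in B27. In rods Clu lay at 12.7 to 22.6 CPM, and RPE-like cells at 4742 to 6113 CPM were the class with most Clu.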

How the results depend on the processing

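Over the alternatives that changed a setting, the log2 fold change in RPE-like cells stayed between 0.01 and 0.19 for Ttr and between -0.18 and -0.07 for Clu. Ptgds there was -0.061 in cluster B0 alone, Cst3 0.068 and Apoe 0.31 without a low-count filter. In Müller glia-like cells Ttr was 3.31 and Ptgds 2.26 with doublets kept, and with the members in the clustering Apoe was 0.018 and Cst3 0.68. In rods Cst3 was 0.079 in cluster A1 alone. Of the other members, reversed values were -0.14 for Apoe in cones and 0.020 in endothelial-like cells (doublets kept), -0.062 for Clu in B5 (replicate block) and -0.10 for Cst3 in A13 (stricter cell filter). Mean Cst3 in RPE-like cells was 33619 CPM without mitochondrial and rod marker genes. The causes were not tested. With 1 library left out in turn, Ptgds ranged from -0.0059 to 0.090 and Cst3 from -0.045 to 0.035 in RPE-like cells; in Müller glia-like cells Ptgds from 0.84 to 1.15, Apoe from -0.19 to 0.082 and Cst3 from 0.45 to 0.72; in rods Ptgds from 1.90 to 2.51 and Clu from 0.37 to 0.57; in endothelial-like cells Apoe from -0.091 to 0.077, Clu from -0.47 to 0.28 and Cst3 from -0.18 to 0.028; in B5 Apoe from -0.20 to 0.11 and Clu from -0.19 to 0.57; and Apoe in cones from -0.15 to 0.85, Clu in fibroblast-like cells from -0.36 to 0.54 and Cst3 in A13 from -0.12 to 0.33.

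Genes called in RPE-like cells were 6 in the fit reported, 13 without a filter or with stricter cells and 0 in B0 alone; in Müller glia-like cells 55, and 175 without a filter and 128 with the members in the clustering; in rods 1819, and 376 in A1 alone. In cones they were 0, 1 with DESeq2 or doublets kept and 4 without a filter; in endothelial-like cells 0, and 17 and 99; in fibroblast-like cells 1, 126 with DESeq2, 360 without a filter and 0 with doublets kept; in B1 14, 40, 120 and 24; in B5 6, and 10 and 64; in A13 1, 2, 12 and 4. The replicate numbers were not taken as pairs in the fit reported. Same-numbered pools correlated at 0.102 or less, which cannot settle whether they were handled together. With the replicate block the counts were 19 in RPE-like cells, 1 in cones, 0 in fibroblast-like cells, 26 in B1, 12 in B5 and 14 in A13. With 1 library left out the counts ranged from 2 to 21 in RPE-like cells, 11 to 86 in Müller glia-like cells, 534 to 2658 in rods, 0 to 5 in cones, 0 to 28 in endothelial-like cells, 0 to 143 in fibroblast-like cells, 2 to 34 in B1, 1 to 19 in B5 and 1 to 11 in A13, and from 2 to 5 of the RPE markers in rods. Depth limits the classes of few cells: RPE-like cells numbered 68 to 662 and Müller glia-like cells 38 to 116 per library.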
